A study of Mus musculus with 5 samples.

Results

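The intervals described here are stretches of the mouse genome (build mm9) that were listed as enriched in an RNA immunoprecipitation (RIP) of Flag-tagged SAMD4 and that touch a 5′ untranslated region (UTR) of at least 1 annotated transcript. An interval was taken when it shared 1 or more bases with such a region, and the clustered histone genes (names from Hist1h to Hist4h) were left out. This gave 325 of the 673 listed intervals, with 339 gene names among the 5′ UTRs touched. A further 47 intervals touched the 5′ UTR of clustered histone genes alone and 301 touched none. No other interval had a 5′ UTR at its edge, so none lay just outside the rule. Just inside it, 4 intervals reached 3 bases of 5′ UTR or fewer, among them those of Rpl36 (415 IP reads and 65 IgG reads), Cdkn2a (127 and 28) and Cyp1b1 (110 and 10).

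All libraries came from osteoblasts of FVB mice homozygous for a piggyBac insertion in Samd4 (Samd4PB/PB), immortalized and made to express Flag-SAMD4 from a lentivirus, so the endogenous gene was disrupted and the bound protein was exogenous in the IP and in the control alike. According to the methods, primary osteoblasts were taken from the calvaria of mice in the first postnatal week. There were 2 anti-Flag IP libraries, 2 IgG control libraries and 1 input library. The antibody field of the IgG libraries reads Flag with other catalogue numbers, while their titles and sources name IgG, and they were taken as IgG. The 2 libraries of an arm share a single read number per interval, and therefore no replicate error can be given. Confidence intervals below cover counting error only, and a difference in reads is one between the sequenced libraries. Of 10 osteoblast markers, Col1a1 alone is among the listed genes, at 3 intervals that touch no 5′ UTR, and of the marker lists for chondrocytes, adipocytes, muscle, macrophages and osteoclasts, and endothelium, none of the genes is listed, so the table cannot settle the cell type.

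The 5′ UTR is the part of an mRNA between its cap and the start codon, over which the small ribosomal subunit scans before translation begins. Structures and proteins in this stretch can slow or block that scanning. SAMD4 is a mammalian relative of fly Smaug, a repressor of translation whose sterile alpha motif (SAM) domain recognizes RNA hairpins with a loop of the letters CNGG. In RIP an antibody recovers the protein with the RNA attached to it, and the IgG arm shows what RNA is recovered without the Flag antibody. Reads here were not divided by an input level, and in a bulk culture fewer cells that express a gene cannot be told apart from less of its RNA per cell.

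The first 30 bases of transcripts with IP reads and 0 IgG reads are printed to show the 5′ ends at issue, with each CNGG in capitals. They belong to the 9 such genes with the most IP reads that have a single RefSeq start site, and to Errfi1, the gene on which the study centred, which has 2. They come from RefSeq on GRCm38.p6, on the strand of the gene. The intervals are on mm9, for which no genome was used here, so the windows could not be placed inside the intervals. By the distance from the start site in the mm9 annotation, the interval of Errfi1 begins 14 bases before the start, that of Hmgn1 6 bases before it and that of Sap18 on it, whereas the others begin between 7 bases (Hnrnpab) and 193 bases (Hnrnpa0) after it.
Errfi1 (upstream start site): gcagtgCAGGaagggctctgtgtgcggacc
Errfi1 (downstream start site): gtcggcggccgagtgcgaggcgcggagcgt
Hnrnpa0: ctctttgtgtggtgtcccgataggggagcg
Srsf2: gcttagttgctgctCAGGcgtccgtCAGGt
Hnrnpab: ggcattataaagagctccacgagttggcat
Timp2: CCGGcctgcaCTGGccgccagccaccgaga
Snd1: gcttgcgcggcgagtagaacgtgtggcggc
Prrc2c: tgacgtagcacgtaggggCTGGctagccgc
Hmgn1: ctcccaccgcccccgcgaCGGGtcgcagca
Sap18: aaacctcgtgcctttcctcgcgagagacga
Dgcr2: tcattggttagtgCGGGCCGGaggCGGGgt

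The windows of Errfi1 lie at chr4:150853796-150853825 and chr4:150855070-150855099 on the plus strand, that of Srsf2 at chr11:116853065-116853094 and that of Timp2 at chr11:118355382-118355411 on the minus strand. Of the 11 windows, 6 hold a CNGG, which says nothing of the bases beyond them. The letters are frequent at start sites in general: the first 50 bases on the transcript's strand held CNGG, overlaps counted, at 78.8% of the 320 RefSeq start sites of the 256 member genes that matched one, and at 68.2% of all 32851 RefSeq start sites. The member start sites also had more G and C, with a median of 68% against 56%. At start sites with 60% to 70% GC the share with CNGG was 76.9% for member genes and 82.9% for all, above that 87.0% and 90.9%, and below 60% it was 64.4% and 55.4%. The higher share over all member genes was therefore not seen at start sites of 60% GC or more. A match of 4 letters is no hairpin, and the stem was not examined. For Errfi1, the paper reports putative SAMD4 recognition elements in the 5′ UTR. Mutating them abolished the effect of SAMD4 on a luciferase reporter. The 5′ UTR sequence given there begins with the last bases of the downstream window, and the mutated stretches lie beyond that window. The lack of CNGG in the downstream window of Errfi1 therefore does not bear on these elements.

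Member intervals held between 15 and 3671 IP reads (median 52) and between 0 and 1387 IgG reads (median 4). Summed over the 325 intervals there were 32034 IP reads and 5971 IgG reads. The 10 intervals with the most IP reads held 31.4% of the IP reads. The ratio of IP reads to IgG reads plus 1 had a median of 9.29, with quartiles of 5.60 and 16.5. Unless scaling is named, ratios and their bounds are of the reads as listed. They would be lower with the IgG reads scaled by 1.637, as in the deposited p-values. In the 301 intervals without 5′ UTR bases the median interval had 102 IP reads, 12 IgG reads and a ratio of 6.40. Split by the IP and IgG reads together, the median ratios of members and of these intervals were 15 and 13.5 with 15 to 39 reads, 9.20 and 7.54 with 40 to 79, 5.43 and 6.23 with 80 to 159 and 4.92 and 3.75 from 160 upward, so the difference turned in the third class. 5′ UTR intervals thus held fewer reads in both arms, and about the same length of genome (median 292 bases against 280).

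**Figure D1:**
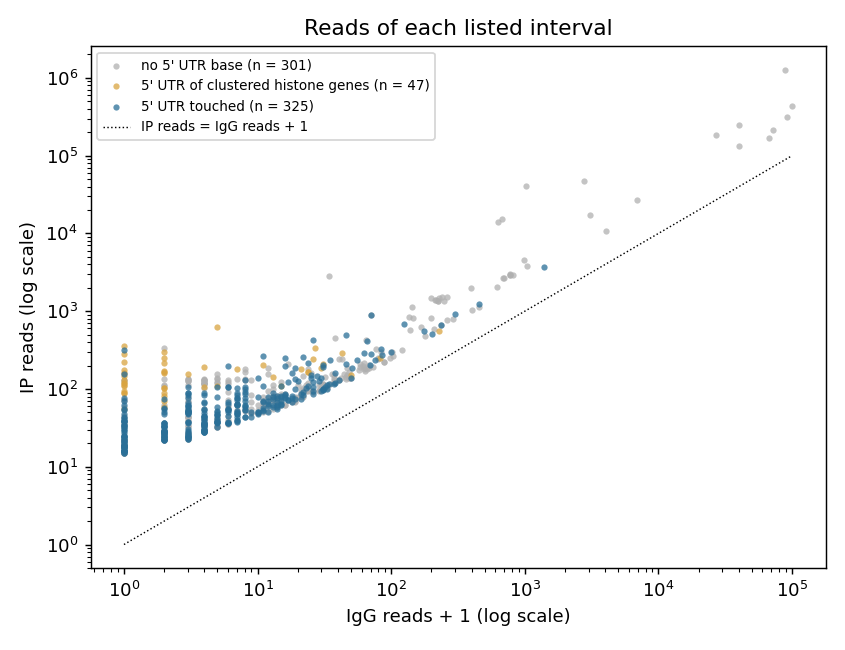
IP reads (vertical, log scale) against IgG reads plus 1 (horizontal, log scale) for each of the 673 listed intervals, 1 point each, with the 325 that touch a 5′ UTR in blue, 47 of clustered histone genes in ochre and 301 others in grey. The blue points reach 3671 IP reads, and those at the left edge are the 54 without IgG reads.

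Every member passed the exact binomial test (two-sided, equal chance for either arm) after Benjamini-Hochberg adjustment, as did every listed interval (325 of 325, background 100%), which follows from a list kept for IP above IgG. A stricter rule asked for 0 IgG reads and at least 15 IP reads. It was met by 54 of 325 members, 16.6% (95% Clopper-Pearson interval 12.7 to 21.1), against a background of 14.4% over all listed intervals and 28 of 301 (9.30%, 6.27 to 13.2) of those without 5′ UTR bases. A ratio rule asked that the lower 95% bound of the ratio of IP to IgG reads be at least 5. It was met by 106 members, 32.6%, against a background of 35.5% and 31.6% of the intervals without 5′ UTR bases. By class of reads it was met by 31.7% of members and 18.4% of the others with 15 to 39 reads, 34.2% and 29.3% with 40 to 79, 32.9% and 42.7% with 80 to 159 and 30% and 29.5% from 160 upward, so the share of members was higher in the first classes and lower in the third. Both backgrounds include the 47 intervals of clustered histone genes. Of these, 31.9% met the rule of 0 IgG reads and 80.9% the ratio rule.

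The share without IgG reads moved with the number of reads. Among intervals with 15 to 39 reads in both arms together, 43 of 101 members (42.6%) and 20 of 49 intervals without 5′ UTR bases (40.8%) had 0 IgG reads. With 40 to 79 reads the shares were 8.11% and 8.62%, with 80 to 159 reads 1.37% and 2.25%, and from 160 reads upward 2.50% and 0.952%. In each class the counting intervals of the groups overlapped. Thus the higher share over all members lay beside a larger number of intervals with few reads, of which 101 of 325 members but 49 of 301 others had under 40.

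**Figure D2:**
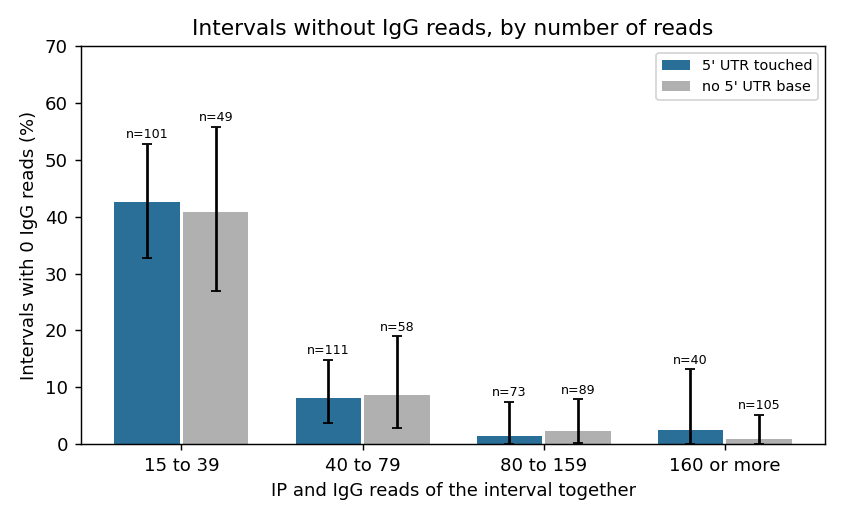
Percentage of intervals with 0 IgG reads (vertical) in 4 classes of IP and IgG reads together (horizontal), for intervals touching a 5′ UTR (blue) and intervals without 5′ UTR bases (grey), with 95% Clopper-Pearson intervals as bars and the number of intervals above. Both groups fall from above 40% in the lowest class to below 3% in the highest.

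The members without IgG reads held between 15 and 314 IP reads (median 24.5), and 34 of the 54 began within 50 bases of the start site. At the lower end, Epha1 and Kank2 had 15 IP reads each. A count of 0 allows up to 3 IgG reads per interval, and folds over it are given against this floor, without the counting error of the IP reads. They lie above the lower 95% bound of the ratio, which counts that error too and allows more IgG reads. With the IgG reads scaled by 1.637, as in the deposited p-values, they are lower, and both are printed. H2afx, which encodes the histone variant H2AX that is phosphorylated at DNA breaks, lies outside the histone clusters and carries a name the rule did not leave out. Its interval (chromosome 9, bases 44142784 to 44143416, plus strand) had 314 IP reads against 0 IgG reads, at least 104.7-fold with the reads as listed and at least 64.0-fold with the IgG scaled. It held 47 bases of 5′ UTR and 432 coding bases, and ran on into the 3′ UTR of this gene without introns.

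Errfi1 encodes MIG6, an adaptor that inhibits the EGF receptor, and was the target that the study followed. Its interval (chromosome 4, bases 150229186 to 150229413, plus strand) had 77 IP reads and none in the IgG. This is at least 25.7-fold, or 15.7-fold with the IgG scaled, and the lower 95% bound of the ratio as listed was 20.4. Of its 228 bases, 14 lay before the start of the transcript chosen to describe it, 181 were 5′ UTR and 33 lay in the first intron. None was coding. Another listed transcript had 195 of the bases as 5′ UTR. Tnfrsf12a, the other gene that the study took up for bone, had 42 IP reads and 0 IgG reads in an interval that touched no 5′ UTR. Samd4 itself had 3 listed intervals, none at a 5′ UTR, with 87 IP reads and 15 IgG reads, 79 and 19, and 124 and 37.

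Of the 17 member intervals in the list of RNA-binding and splicing proteins, 5 had 0 IgG reads (29.4%, beside 16.6% of all members and a background of 14.4%). Hnrnpa0, a heterogeneous nuclear ribonucleoprotein, had 157 IP reads and none in the IgG (at least 52.3-fold, 32.0-fold with the IgG scaled), over 50 bases of 5′ UTR and 586 coding bases. Srsf2, an SR protein of splicing, had 71 and 0 (at least 23.7-fold, 14.5-fold with the IgG scaled). Hnrnpab had 62 and 0, and its 208 bases were all 5′ UTR. An interval shared by Sfswap, a regulator of splicing, and a transcript named Srsf8 had 55 and 0, and Rbm39, a splicing coactivator, had 39 and 0 over 292 bases of 5′ UTR. Snd1, a nuclease-domain protein that also binds RNA and was in no list, had 43 and 0. Further genes of RNA-binding proteins outside the list stood lower among the members without IgG reads. Ncbp1, of the nuclear cap-binding complex, had 24 IP reads, Slbp, which binds the stem loop of histone mRNAs, had 18 and Raly had 16. The other 12 intervals of the list held IgG reads.

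Other intervals without IgG reads and with many IP reads came from genes of several kinds. Fads1, a fatty acid desaturase, had 53 IP reads and Timp2, an inhibitor of matrix metalloproteinases, had 48. Prrc2c had 40 IP reads over 199 bases that were all 5′ UTR. Bsg, a membrane glycoprotein that induces metalloproteinases, and Hmgn1, a nucleosome-binding protein, had 39 each. Among members of lower depth, Cited2, a transcriptional coregulator, had 32 IP reads over 226 bases of 5′ UTR, and Ctnnb1, which encodes β-catenin, had 24 over 160 bases of 5′ UTR. All of these had 0 IgG reads.

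**Figure D3:**
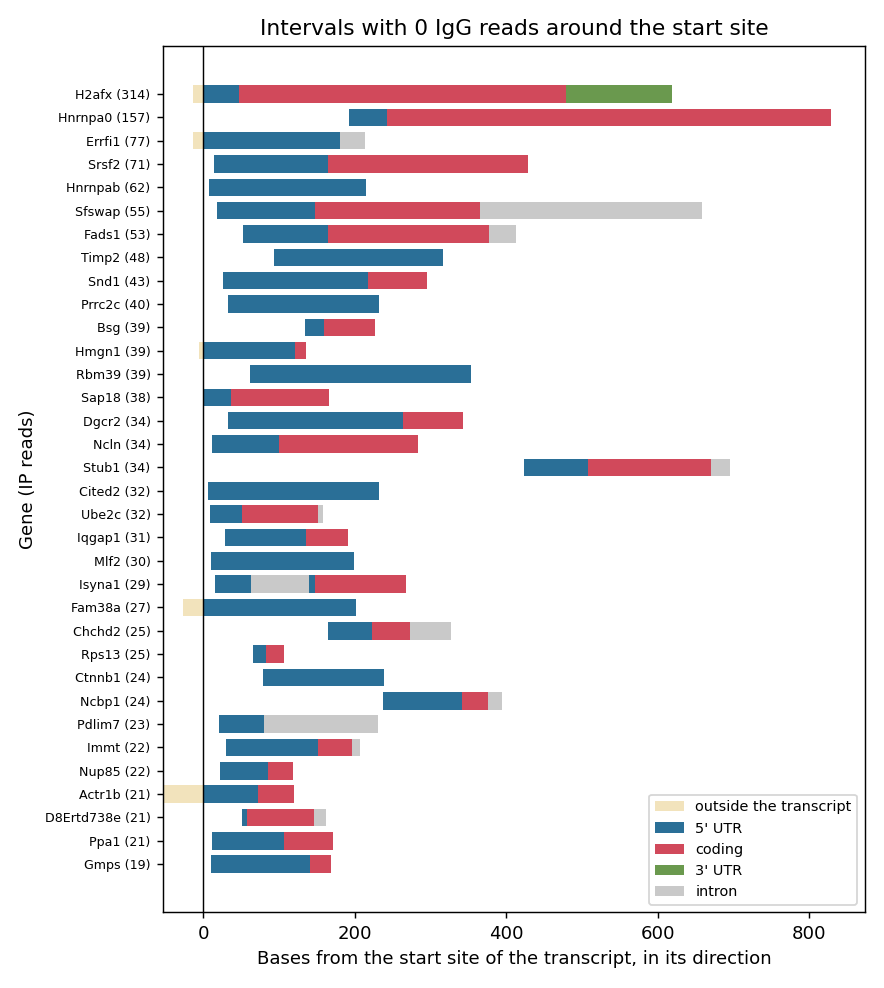
Position of the intervals with 0 IgG reads relative to the start site of the transcript (horizontal, bases in its direction, start site at 0) for 34 of those with the most IP reads, given in brackets after each gene, coloured by part of the transcript. The 3 whose interval lay over 900 bases from the start were left out; Errfi1 spans the start and Hnrnpab, Timp2, Prrc2c and Rbm39 are blue throughout.

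With a single IgG read admitted, 34 further members came close to these. Tpm4, a tropomyosin, had 75 IP reads and 1 IgG read, Serpinf1, which encodes the secreted factor PEDF, had 57 and 1, Ntn1, the guidance cue netrin, had 55 and 1, and Axl, a receptor tyrosine kinase, had 51 and 1. Psmd3 of the proteasome had 48 and 1. Whether an interval had 0 or 1 IgG read lies within counting error.

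The members with the most IP reads also had IgG reads. At the head stood Rcc1, the exchange factor of the Ran GTPase, with 3671 IP reads and 1387 IgG reads. The ratio was 2.65 (2.49 to 2.82). Only 19 of the 1058 bases were 5′ UTR of an Rcc1 transcript, and the interval also holds Snhg3 and the small nucleolar RNA genes Snora73a and Snora73b, whose reads could not be told apart from those of Rcc1. Fbln2, the matrix protein fibulin, followed with 1244 and 454, with 13 bases of 5′ UTR of a transcript whose start lies 19970 bases upstream. Then came Rpl8 with 910 and 301, Lox, the collagen cross-linking enzyme lysyl oxidase, with 895 and 69, and fibronectin (Fn1) with 692 and 124. Aebp1 had 674 and 236, Trrap 549 and 176, Rpl10a 503 and 201, Rps2 498 and 45 and Rpl13 428 and 25. Of these 10, 7 had more than 100 IgG reads, and Lox (13.0, 10.1 to 16.8), Rps2 (11.1, 8.15 to 15.4) and Rpl13 (17.1, 11.4 to 26.8) had ratios above those of the other 7, whose intervals ended at 6.81 or below.

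The largest lower bounds of the ratio were those of H2afx (84.6), Hnrnpa0 (42.1), Errfi1 (20.4), Srsf2 (18.8) and Fscn1 (16.6). Fscn1, the actin-bundling protein fascin, reached its bound with 197 IP reads and 5 IgG reads. The smallest were those of Rps12 (139 IP reads and 49 IgG reads, 2.03), Myh9 (101 and 32, 2.10), Pdlim7 (94 and 29, 2.12), Rpl10a (2.12) and Sbf1 (97 and 30, 2.13). Hence members with like numbers of IP reads, such as Hnrnpa0 with 157 and Rps12 with 139, differed from 0 to 49 in their IgG reads.

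By group of genes, cytosolic ribosomal proteins stood lowest, with 14 member intervals and a median ratio to IgG reads plus 1 of 4.03, beside 9.29 over all members and 8.33 over all listed intervals. They had a median of 218.5 IP reads, and 1 of 14 met the rule of 0 IgG reads, Rps13 with 25 IP reads (7.14%, against the background of 14.4%, and 2.50% among members with 160 reads or more), while 3 met the ratio rule (21.4%, against 35.5%). RNA-binding and splicing proteins had 17 intervals, a median ratio of 9.33 and 8 that met the ratio rule (47.1%, against 35.5%). Those with the most IP reads were Hnrnpu (267 IP reads and 10 IgG reads), Hnrnpa0, Hnrnpa2b1 (140 and 24) and the helicase Ddx5 (136 and 18). Translation factors had 7 intervals and a median ratio of 7.33. Eif5a had 110 and 14, the cap-complex scaffold Eif4g1 had 107 and 25 and, at its other interval, 63 and 14, and the reinitiation factor Denr had 18 IP reads and 0 IgG reads.

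Transcription regulators had 8 intervals with a median ratio of 9.19, among them the AP-1 genes Jun (139 and 29), Junb (131 and 7) and Fosl2 (88 and 2). Chromatin proteins had 6 intervals with a median of 13.1, and besides H2afx and Hmgn1 these were Hmgb1 (81 and 14), H3f3b (65 and 6), Hmgn2 (42 and 4) and the DNA methyltransferase Dnmt1 (34 and 1). Mitochondrial proteins had 19 intervals with few reads (median 29 IP reads and 1 IgG read) and a median ratio of 12.3. Phb2, a prohibitin, had 70 and 10, Atp5a1 of the ATP synthase had 46 and 4, and Chchd2, Immt, Timm8a1 and Cyc1 had 25, 22, 19 and 16 IP reads and 0 IgG reads. An interval with few reads had to have a high ratio to be listed, so these medians cannot be read apart from the number of reads.

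Extracellular matrix and adhesion genes, which osteoblasts use to build bone matrix, had 19 intervals with a median ratio of 8.75. After Fbln2, Lox and Fn1 came Loxl1 with 249 IP reads and 15 IgG reads. Timp2 and Bsg had 0 IgG reads, and the fibrillin gene Fbn1 had 27 and 1. Cytoskeletal genes had 21 intervals with a median of 9.04, and 11 of the 21 met the ratio rule (52.4%, beside 32.6% of all members and the background of 35.5%). Vimentin (Vim) had 294 and 62, profilin (Pfn1) 217 and 23, Tpm1 132 and 40 and lamin A/C (Lmna) 107 and 2. Iqgap1 and an interval of Pdlim7 had 0 IgG reads, with 31 and 23 IP reads.

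Chaperones and genes of protein turnover had 17 intervals and a median ratio of 11.9. The endoplasmic reticulum chaperones Hspa5 and Calr had 261 and 21 and 201 and 30. Usp19 had 237 and 74 at an interval that also carries the name Lamb2. The ubiquitin-system genes Stub1, Ube2c and Ube2s had 34, 32 and 19 IP reads and 0 IgG reads. Signalling genes had 15 intervals and a median of 8.94. The GTPase gene Rhob had 161 and 17 and the Wnt receptors Fzd2 and Fzd7 had 122 and 16 and 116 and 33, whereas Errfi1, Ctnnb1, Ptk7, Ptprf and Epha1 had 0 IgG reads. Metabolic enzymes had 10 intervals and a median of 9.17, with Slc3a2 at 94 and 25, Fads2 at 65 and 5 and Isyna1, which makes inositol phosphate, at 29 and 0. The neighbouring desaturase genes Fads1 and Fads2 were thus both listed at their 5′ UTRs.

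By RefSeq gene type, 323 of 325 members matched a protein-coding gene, and Gm9998 and H2-gs10 matched no entry. A RefSeq coding transcript gave the 5′ UTR in 278 intervals, and other transcripts alone in the rest. More than 1 gene name occurred in 67 intervals and 5′ UTRs of more than 1 name in 23. In 6 intervals the 5′ UTRs lay on opposite strands. These were Fn1 with Apol7d and Gm15456, Srsf2 with Mfsd11, Znhit1 with Plod3 (49 IP reads and 6 IgG reads), Tln1 with Creb3 (36 and 5), Emb with Gm17509 (30 and 3) and Ssrp1 with P2rx3 (28 and 3). The sources used here do not give the strand of the reads, so reads of these pairs could not be assigned to one gene. The intervals of Gm9998 and Trim17 also hold a clustered histone gene (190 IP reads and 30 IgG reads, and 63 and 6).

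The intervals were not bounded by the 5′ UTR. They were 40 to 4303 bases long, with a median of 98 bases of 5′ UTR of the transcript chosen to describe each, or 33.0% of the interval at the median. The annotated start site lay inside 88 intervals, 182 began within 50 bases of it on either side and 47 began over 500 bases downstream of it. In all, 267 of 325 (82.2%) also held coding bases of a transcript whose 5′ UTR they touched, and so ran over the start codon or held it in a neighbouring exon. By the chosen transcript, 29 intervals held 5′ UTR without coding or intron bases, 119 held coding bases too, 30 intron bases and 147 both.

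Intron bases of a touched transcript were held by 192 members (59.1%). Since one transcript's intron can be another's exon, intron-only bases, those that no listed transcript of the interval has as exon, were counted as well. They occurred in 164 members (50.5%), with a count of at least 20 in 142. In the intervals without 5′ UTR bases the share was alike, 159 of 301 (52.8%), but those intervals reached farther into introns. Intron-only bases made up 16.8% of the bases of members and 26.0% of theirs, and 30.2% of members against 42.2% of them held 50 or more. The 3′ edge fell exactly on an exon's end in 149 members (45.8%) and in 26.6% of the intervals without 5′ UTR bases, while the 5′ edge of 15 members fell exactly on an exon's start.

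The members with the most intron bases were Usp19, a deubiquitinase, with 1548 bases of intron in the chosen transcript, Rpl10a with 1514, Pdlim7 with 1123, Rcc1 with 1039 and Zfp516 with 814. In Rpl10a 81 of these bases were intron-only and in Rcc1 none, as other transcripts have exons there. In Pdlim7 and Zfp516 all were, and in Usp19, where the interval began 2535 bases before the chosen start, the intron-only bases of all transcripts came to 2413. The Usp19 interval also carries the name Lamb2, so its reads and intron-only bases could not be assigned to Usp19 alone. The intervals of these 3 genes had IgG reads in number, with 237 IP reads and 74 IgG reads in Usp19, 94 and 29 in Pdlim7 and 120 and 37 in Zfp516. Loxl1, with 743 intron-only bases, had 249 and 15.

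Intervals with intron-only bases were longer (median 370 bases against 228) and held more reads, with medians of 64.5 IP reads and 7 IgG reads against 39 and 3. They met the rule of 0 IgG reads in 14 of 164 cases (8.54%) against 40 of 161 (24.8%), and the ratio rule in 30.5% against 34.8%. With 15 to 39 reads the shares without IgG reads were alike, 42.9% with and 42.5% without intron-only bases. With 40 to 79 reads they were 3.39% (2 of 59) and 13.5% (7 of 52). The median ratio was 16.5 against 14.5 in the first class, 9.25 against 9.20 in the second, 5.32 against 5.74 in the third and 4.29 against 9.37 from 160 reads upward, where 30 and 10 intervals were compared. Among intervals with like numbers of reads, the median ratios thus lay close together in the first 3 classes and apart in the last.

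**Figure D4:**
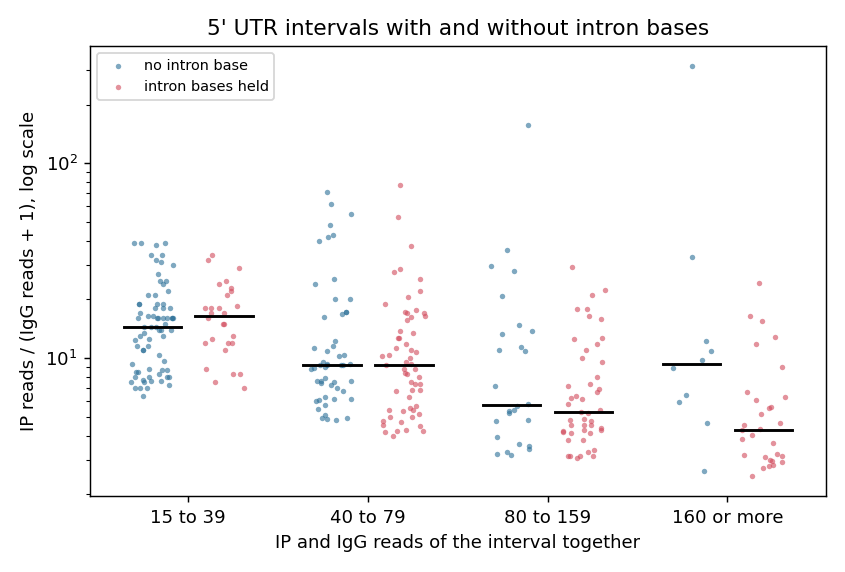
Ratio of IP reads to IgG reads plus 1 (vertical, log scale) of the 325 members in 4 classes of IP and IgG reads together (horizontal), without (blue) and with (red) intron-only bases, 1 point per interval and the median as a black line. The medians lie side by side in the first 3 classes and at 9.37 and 4.29 in the last.

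The ratio also moved with the distance from the start site. Intervals that began within 50 bases of the start site had a median ratio of 11.0 and met the ratio rule in 35.7% of cases (65 of 182), and those that began over 500 bases downstream had 6.75 and 17.0% (8 of 47). The downstream intervals had more reads (median 73 IP reads and 9 IgG reads against 51 and 3). Among intervals with 160 reads or more, those within 50 bases of the start met the ratio rule in 47.8% of 23 cases (median ratio 6.69) and those farther away in 5.88% of 17 (median 4.01). With 80 to 159 reads the shares were 39.3% and 28.9% (medians 6.76 and 4.79), with 15 to 39 reads 31.1% and 32.5%, and with 40 to 79 reads 34.3% and 34.1%. The 29 intervals with neither coding nor intron bases of the chosen transcript were the shortest and the poorest in reads. Their medians were 195 bases, 31 IP reads and 1 IgG read. Such an interval can also hold bases outside that transcript, and at Tcirg1 only 127 of 812 bases were its 5′ UTR. Of the 29, 13 (44.8%) had 0 IgG reads, close to the 42.6% of all members with 15 to 39 reads. In the 29 the IP reads summed to 1060 and the IgG reads to 64, of which Tcirg1 had 82 and 17.

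For 23 genes the list also held an interval without 5′ UTR bases, and the IP share of the reads was compared between the 2 intervals of a gene, the deepest of each kind. This comparison holds the gene name and both arms fixed, although an interval can also hold another gene. It does not hold the number of reads fixed, and an interval with few reads had to have a high ratio to be listed. The IP share was higher at the 5′ UTR interval in 13 genes, lower in 9 and equal in 1, and none of the differences passed Fisher's exact test, two-sided, after Benjamini-Hochberg adjustment over the 23 pairs (background 0%). Without adjustment 3 higher and 2 lower ones had a p up to 0.05. The smallest adjusted p was 0.0656, by Fisher's exact test, in each of Prrc2a, Lmna and Ncln.

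Prrc2a had 237 IP reads and 54 IgG reads at the 5′ UTR (IP share 81.4%) and 797 and 289 elsewhere (73.4%). Its 5′ UTR interval, with 53 of 662 bases in the 5′ UTR, also holds the small nucleolar RNA gene SNORA38. Reads of SNORA38 could not be told apart from those of Prrc2a. Lmna had 107 and 2 (98.2%) against 124 and 14 (89.9%), and Ncln, which encodes nicalin of the endoplasmic reticulum, had 34 and 0 against 62 and 13 (82.7%). In the opposite direction, Plxnb2, a semaphorin receptor, had 270 and 84 at the 5′ UTR (76.3%) and 42 and 4 elsewhere (91.3%), with an adjusted p of 0.127 by Fisher's exact test. Pdlim7 had 94 and 29 (76.4%) against 71 and 10 (87.7%), at 0.220 by the same exact test, and Sbf1 had 76.4% against 79.5%. Of the 1892 bases of the Plxnb2 interval, 13 were 5′ UTR of the chosen transcript (up to 796 of another). Of the 1285 bases of the Pdlim7 interval, 66 were. Prrc2a, Plxnb2 and Pdlim7 also had a shallower member interval outside the pair, with 19 IP reads and 0 IgG reads, 28 and 1, and 23 and 0. The median IP share was 90.5% at the 5′ UTR intervals and 83.8% at the others. In every pair named here the higher share lay at the interval with fewer reads in all, and in a few other pairs at the deeper one. With at least 30 reads in each interval, 17 pairs remained, and the share was higher at the 5′ UTR in 9. The direction within pairs therefore cannot be read apart from the number of reads.

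**Figure D5:**
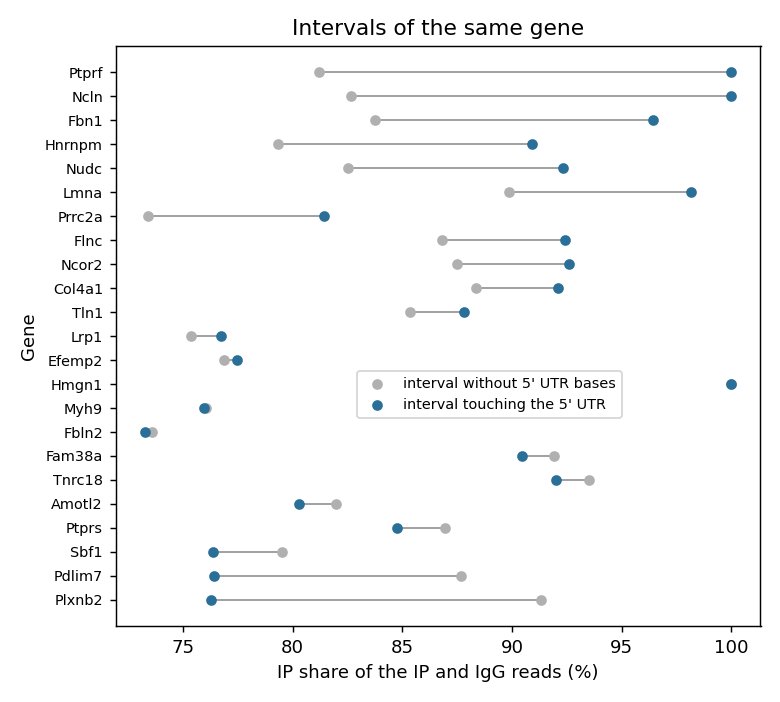
IP share of the IP and IgG reads in percent (horizontal) at the interval touching the 5′ UTR (blue) and at the interval without 5′ UTR bases (grey) of the same gene, for 23 genes (vertical) ordered by the difference. The share is higher at the 5′ UTR in 13 genes, from Ptprf at the top, and lower in 9, with Plxnb2 at the bottom.

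For 11 genes 2 member intervals carried the gene's name, and their reads could differ widely. Myh9, a non-muscle myosin, had 106 IP reads and 4 IgG reads at one and 101 and 32 at the other, although the IP reads were nearly equal. Plxnb2 had 270 and 84 and 28 and 1, and Prrc2a 237 and 54 and 19 and 0. Serpinf1 had 57 and 1 and 24 and 1, with 1 IgG read at both.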

How the data were processed

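RNA immunoprecipitation and sequencing was done by the authors on Flag-SAMD4 expressing Samd4PB/PB osteoblasts (2 IP, 2 IgG and 1 input library). The submitters' processing notes name TopHat2 2.0.9 and the build mm9. The sources used here give neither the caller of the intervals nor the depth of the libraries, nor do they say whether both libraries of an arm were summed. The input, whose source reads DNA, was not analysed here. The deposited table has 16285 lines, each pairing 1 of 673 intervals with a part of a transcript. Its units, as deposited by the authors, are 1 count of reads per interval for either arm, a fold (ratio of the arms), a p-value with its q-value, and another number, the overlapping bases. The p-values, q-values and fold are the authors' own comparison and were not used as results. The p-values were used to find how the arms had been scaled: in 560 of 560 intervals tested, within a relative tolerance of 1e-04, the deposited p-value equals a binomial p after the IgG count is scaled up by 1.637. The counts were used as listed.

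Intervals were compared with Python 3.11.15, pandas 2.3.3, numpy 2.4.6 and scipy 1.17.1. The 95% interval of a ratio was derived from that of the IP share (Clopper-Pearson). Each base of an interval was assigned to 1 part of a transcript, UTR before coding before intron, since the lines of 22 members mark the same bases as UTR and coding. Each interval was described by 1 transcript whose 5′ UTR it touches, and intervals in genome coordinates are counted from 1. Symbols and gene types were matched to RefSeq (GRCm38.p6), where 256 of 312 member symbols had a start site. The tests were checked on simulated data.

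The members and the gene lists were chosen with earlier results of these data known. Genes were named by a rule: the 10 members with the most IP reads, the 12 with the most among those with 0 IgG reads, the 5 with the most IgG reads, the 5 largest and 5 smallest lower bounds, up to 4 of each list, the 5 with the most intron bases, those that are 5′ UTR throughout, the pairs at both ends, the members on opposite strands, and Errfi1, Tnfrsf12a and Samd4. Others named (members with 1 IgG read, further list members, other genes of RNA-binding proteins, genes with 2 intervals and those that touch 3 bases of 5′ UTR or fewer) were chosen after their values were seen. A few genes that meet the rule are not reported here. Alternatives changed the bases of 5′ UTR, the transcripts and names admitted, the limits on reads and ratio, the scale of the arms, the expected share, the count added, the fewest intron or coding bases and the choice of pairs.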

Additional observations from a re-analysis of the deposited data

How the results depend on the processing

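Of 36 alternative settings, 30 left the count within 1.5 times its value (the median ratio within its interval of 8.50 to 10.8) and 6 moved it. The number of members with 0 IgG reads fell from 54 to 22 with at least 30 IP reads and rose to 88 with up to 1 IgG read. The number past the ratio rule was 246 at a lower bound of 3 and 25 at a lower bound of 10, instead of 106 at 5. When the expected share was that of the IP among all listed reads (0.852), the binomial test called 67 members instead of 325. The test is two-sided, so at this share it also calls members whose IP share is lower, and the 67 are no count of enriched members. With 3 instead of 1 added to the IgG reads the median ratio was 6.0. Each of these settings moves the limit itself. With the IgG reads scaled by 1.637, 79 members met the ratio rule, which counts as unmoved. Asking for 30 bases of 5′ UTR left 288 members, RefSeq coding transcripts alone left 278, and keeping the histone names gave 372, of which 69 had 0 IgG reads. Leaving out the intervals that also hold a clustered histone gene, an alternative added after seeing the data, left 54 and 106. No paired analysis was possible because each arm is listed as 1 number of reads per interval, with no column per library. For the same reason no library could be left out. With a median of 4 IgG reads, the number of reads limits every ratio.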
